A study of Mus musculus with 15 samples.

Results

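Mouse adipocytes exposed to forskolin for 4 h were set against vehicle-treated adipocytes of the same line, 6 of the 15 libraries of the series. Both groups, FSK4h and vehicle, were differentiated MAP cells, a mouse line of immortalized fat cell progenitors, with 3 RNA-seq libraries each. The FSK4h cells received forskolin, a plant diterpene that directly activates adenylyl cyclase, on day 7 to 8 of differentiation and were harvested after 4 h, and the vehicle cells received no forskolin. Cells of both groups had been differentiated for 2 days in insulin, isobutylmethylxanthine, dexamethasone and rosiglitazone and for 2 more days in insulin and rosiglitazone, so both had earlier met a phosphodiesterase inhibitor and a PPARγ agonist. The sources used here give neither the forskolin dose nor the harvest time of the vehicle cells, and all libraries come from 1 cell line. Libraries of a 1-day forskolin group, FSK1D (n = 3), are used for a second comparison at the end.

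In fat cells, noradrenaline and several peptide hormones act through receptors coupled to a stimulatory G protein and adenylyl cyclase. The cyclic AMP (cAMP) they raise releases the catalytic subunits of protein kinase A, which phosphorylate lipolytic proteins at the lipid droplet and, in the nucleus, the transcription factor CREB. CREB binds the cAMP response element, and its immediate targets include transcription factors of the NR4A and AP-1 families as well as inhibitors that end the signal, such as phosphodiesterases and the CREM repressor.

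Total counts were 27514310 to 39968932 per library in FSK4h and 26388586 to 31089519 in vehicle. Across genes, log2 expression correlated at 0.997 to 0.998 between libraries of a group and at 0.970 to 0.973 between groups, with genes not being independent replicates. The precursor of ribosomal RNA, Rn45s, held 8.533% to 8.872% of counts in FSK4h and 8.498% to 8.574% in vehicle. The 10 mature adipocyte markers all passed the filter on low counts and summed to 9750 to 11290 CPM (counts over the scaled library total) in FSK4h and 8924 to 10310 CPM in vehicle. Among the markers of other cells, the progenitor and fibroblast list summed to 3544 to 3756 CPM in FSK4h and 3960 to 4104 CPM in vehicle, and the macrophage list to 10.2 to 12.1 CPM in FSK4h and 5.06 to 5.19 CPM in vehicle. Of the 10 macrophage markers, 2 to 4 had no count in a given library. The smooth muscle list summed to 321 to 341 CPM in FSK4h and 366 to 371 CPM in vehicle, the Schwann and neuronal list to 9.75 to 11.2 CPM in FSK4h and 14.5 to 15.9 CPM in vehicle, and the endothelial list to 6.60 to 7.12 CPM in FSK4h and 7.78 to 11.3 CPM in vehicle. Their part in the results was not tested, and in such bulk samples fewer cells of a type and less RNA per cell cannot be told apart.

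Levels are CPM scaled by trimmed mean of M values (TMM), as mean ± SD of 3 libraries, and changes are log2 of FSK4h over vehicle ± SE. Calls required an adjusted p under 0.05 (edgeR's quasi-likelihood test, two-sided, Benjamini-Hochberg adjustment over all genes tested). Of 14421 genes tested, 4093 (28.4%) were called higher in FSK4h and 4421 (30.7%) lower, 59.0% in all, so that a call alone says little about any gene list. Calls of at least 2-fold were scarcer, with 784 genes higher (5.44%) and 909 lower (6.30%). These shares are the background for the list counts below. The largest changes were mostly rises: 80 genes were called at least 8-fold higher and 33 at least 8-fold lower. With library size alone in place of TMM the median log2 change over all genes was −0.23, against −0.035, and 2519 genes were called higher and 6708 lower, 603 and 1405 of them by 2-fold. Higher calls then made up 27.3% of all calls, against 48.1% with TMM, and list counts given with library size alone have this lower background. Changes near 0.2 on the log2 scale therefore turn on the scaling, and the text dwells on larger ones.

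The 15 largest rises and 15 largest falls among called genes of at least 5 CPM each had libraries that did not overlap between groups, a condition of their choice that 65.0% of all tested genes met. The rises held a set of secreted proteins, namely the natriuretic peptide Nppc, the EGF receptor ligand Areg, the cytokines Il6 and Lif, the enkephalin precursor Penk, the fibrinogen chain Fga, the lubricating glycoprotein Prg4 and the metalloprotease Tll1. With them were the nuclear receptor Nr4a3, the early response gene Ier3, the orphan receptor Gpr35, the mitochondrial uncoupler Ucp1, the lipid droplet protein Hilpda and the amino sugar enzymes Gfpt2 and Uap1. The falls, 14 of which are named, were mostly of genes of low to moderate level: the Wnt agonist Rspo2, Wnt16, the Notch-modifying glycosyltransferase Lfng, the hormone receptors Adcyap1r1 and Mc5r, the insulin receptor substrate Irs3, the growth factor signalling inhibitor Il17rd, the pro-apoptotic Bmf and Pawr, the iron exporter Slc40a1, and Rab3il1, Mtus2, Fam13c and Lrrc17. A gene on the other strand overlaps 29.9% of the exonic bases of Fam13c.

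**Figure D1:**
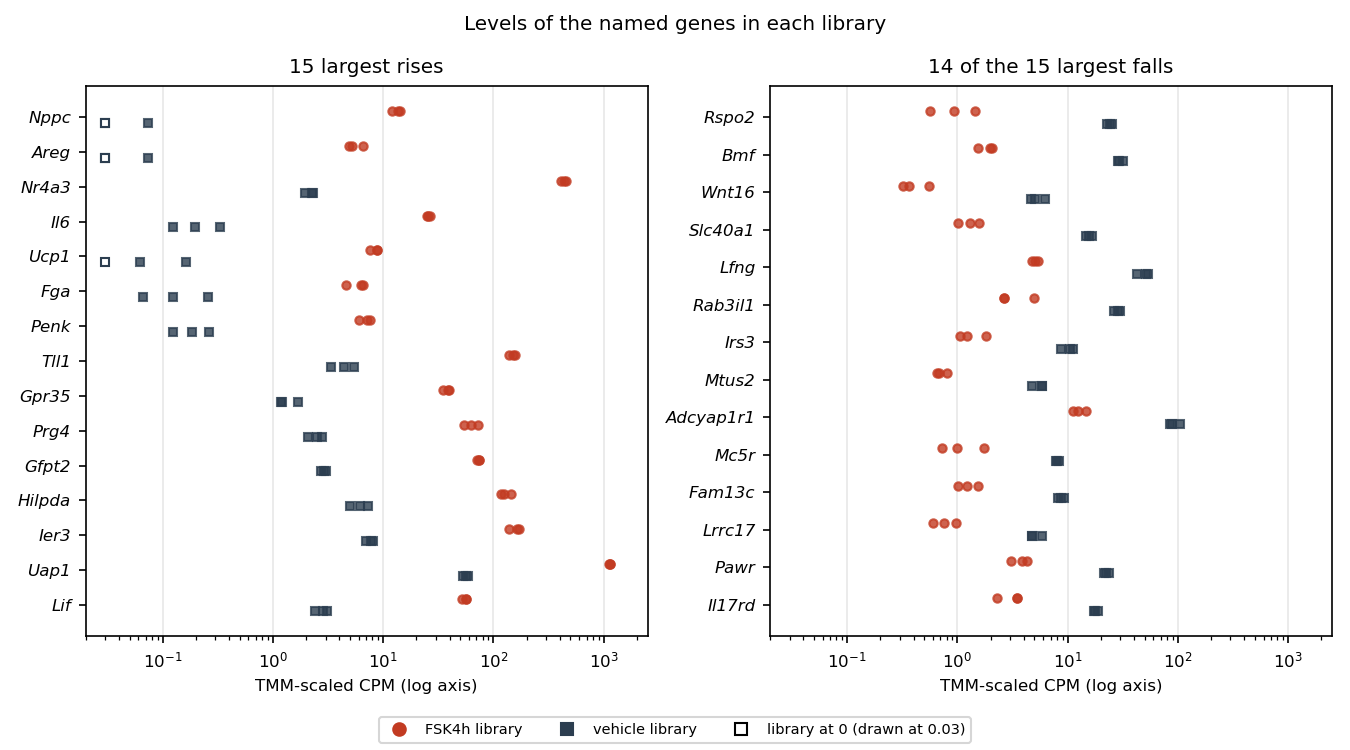
TMM-scaled CPM (log axis) of the 15 genes with the largest rise (left) and 14 of the 15 with the largest fall (right) in each library, with FSK4h libraries as circles above vehicle libraries as squares. Libraries at 0 are drawn as open symbols at 0.03. In every row the 3 FSK4h libraries lie on one side of the 3 vehicle libraries, which was a condition of the choice. In FSK4h, levels run from Uap1 at 1112 to 1150 CPM (53.3 to 59.2 CPM in vehicle) to Wnt16 at 0.324 to 0.550 CPM (4.63 to 6.20 CPM in vehicle). Vehicle libraries of Nppc, Areg and Ucp1 reach 0.

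Among the genes that make and break down cAMP, the cyclase Adcy3 and several phosphodiesterases rose by 2-fold or more. Adcy3, an adenylyl cyclase, stood at 128, 127 and 132 CPM in the FSK4h libraries and at 14.4, 13.6 and 13.6 CPM in the vehicle libraries. All 3 FSK4h libraries lay far above vehicle, with a log2 change of 3.22 ± 0.065 (edgeR adjusted p = 2.6e-29). A share of 25.7% of the exonic bases of Adcy3 overlaps Cenpo on the other strand, and Cenpo, named for that reason after its values were seen, was at 11.8 CPM in FSK4h and 11.9 CPM in vehicle. Of the 11 cyclase and G protein genes tested, 3 were called higher and 3 lower (2 and 5 with library size alone). Adcy9 fell by 0.66 ± 0.057 and Adcy7 by 0.60 ± 0.092 on the log2 scale. Adcy4, at 1.10 CPM in FSK4h and 0.412 CPM in vehicle, rose by 1.39 ± 0.41, and Gnas, the stimulatory G protein itself, was at 711 CPM in FSK4h and 663 CPM in vehicle and was not called, although it was called higher under 4 of the alternatives.

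The phosphodiesterases split into 5 that rose, all by more than 2-fold, and 7 that fell, of 15 tested. Pde4d, a cAMP-specific phosphodiesterase, was at 246, 254 and 253 CPM in FSK4h and at 56.3, 54.0 and 54.8 CPM in vehicle. Its groups were well apart, with a log2 change of 2.19 ± 0.051 (edgeR adjusted p = 9.1e-28). Pde4b rose by 2.31 ± 0.072, Pde10a by 2.22 ± 0.10 and the calmodulin-dependent Pde1a by 1.30 ± 0.062. Pde3b, through which insulin lowers cAMP in fat cells, was at 378, 453 and 398 CPM in FSK4h and at 145, 191 and 180 CPM in vehicle, a log2 change of 1.25 ± 0.092 (edgeR adjusted p = 4.1e-08). The 7 that fell changed less, from Pde7b, which fell by 1.05 ± 0.18, to Pde7a, which fell by 0.37 ± 0.051. With Pde1b, Pde8b, Pde4a, Pde2a and Pde5a between them, members of the same family moved in opposite directions.

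At the transcript level protein kinase A changed little, and its activity was not measured. Of its 8 subunits and inhibitors tested, 3 were called higher and 2 lower (2 and 4 with library size alone), and none moved by 2-fold: the regulatory subunits Prkar2a and Prkar1a rose by 0.70 ± 0.046 and 0.50 ± 0.042, the catalytic subunit Prkaca fell by 0.28 ± 0.065, and the inhibitor Pkia fell by 0.69 ± 0.076. Prkacb, the other catalytic subunit, was at 137 CPM in FSK4h and 142 CPM in vehicle and was not called. Of the 13 anchors and exchange factors tested, 5 were called higher and 2 lower (5 each with library size alone). Akap13 and Akap11 rose by 0.57 ± 0.044 and 0.58 ± 0.051, while Akap7 fell by 1.33 ± 0.11. Rapgef3, the cAMP-responsive exchange factor known as Epac1, fell to 2.92 ± 0.788 CPM in FSK4h, against 9.69 ± 1.60 CPM in vehicle (SD, n = 3 each), a log2 change of −1.72 ± 0.16.

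Downstream, Creb1 stayed near its vehicle level and the feedback genes Sik1 and Crem rose. Sik1, a salt-inducible kinase that inactivates the CREB coactivators, was at 203, 217 and 193 CPM in FSK4h and at 21.4, 22.4 and 20.6 CPM in vehicle (log2 change 3.25 ± 0.069, edgeR adjusted p = 1.1e-28). Crem, whose inducible short isoform represses cAMP response elements, was at 91.2, 95.5 and 94.8 CPM in FSK4h and at 9.88, 10.5 and 11.7 CPM in vehicle (log2 change 3.14 ± 0.080, edgeR adjusted p = 1.5e-26). Neither gene had overlapping groups, and counts per gene do not tell the Crem isoforms apart. Of the 12 genes of this list 6 were called higher and none lower, but only these 2 by 2-fold, and with library size alone 4 were higher and 6 lower. Creb1 was at 58.4 CPM in FSK4h and 62.2 CPM in vehicle, Sik2 at 208 and 214 CPM and Crtc1 at 35.4 and 34.5 CPM in the same order, none of them called. Smaller rises were called for the coactivator Crtc2 (0.53 ± 0.066), Stk11 (0.48 ± 0.050), Sik3 (0.21 ± 0.045) and Atf1 (0.17 ± 0.057). The calls of Sik3 and Atf1 were lost with library size alone.

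**Figure D2:**
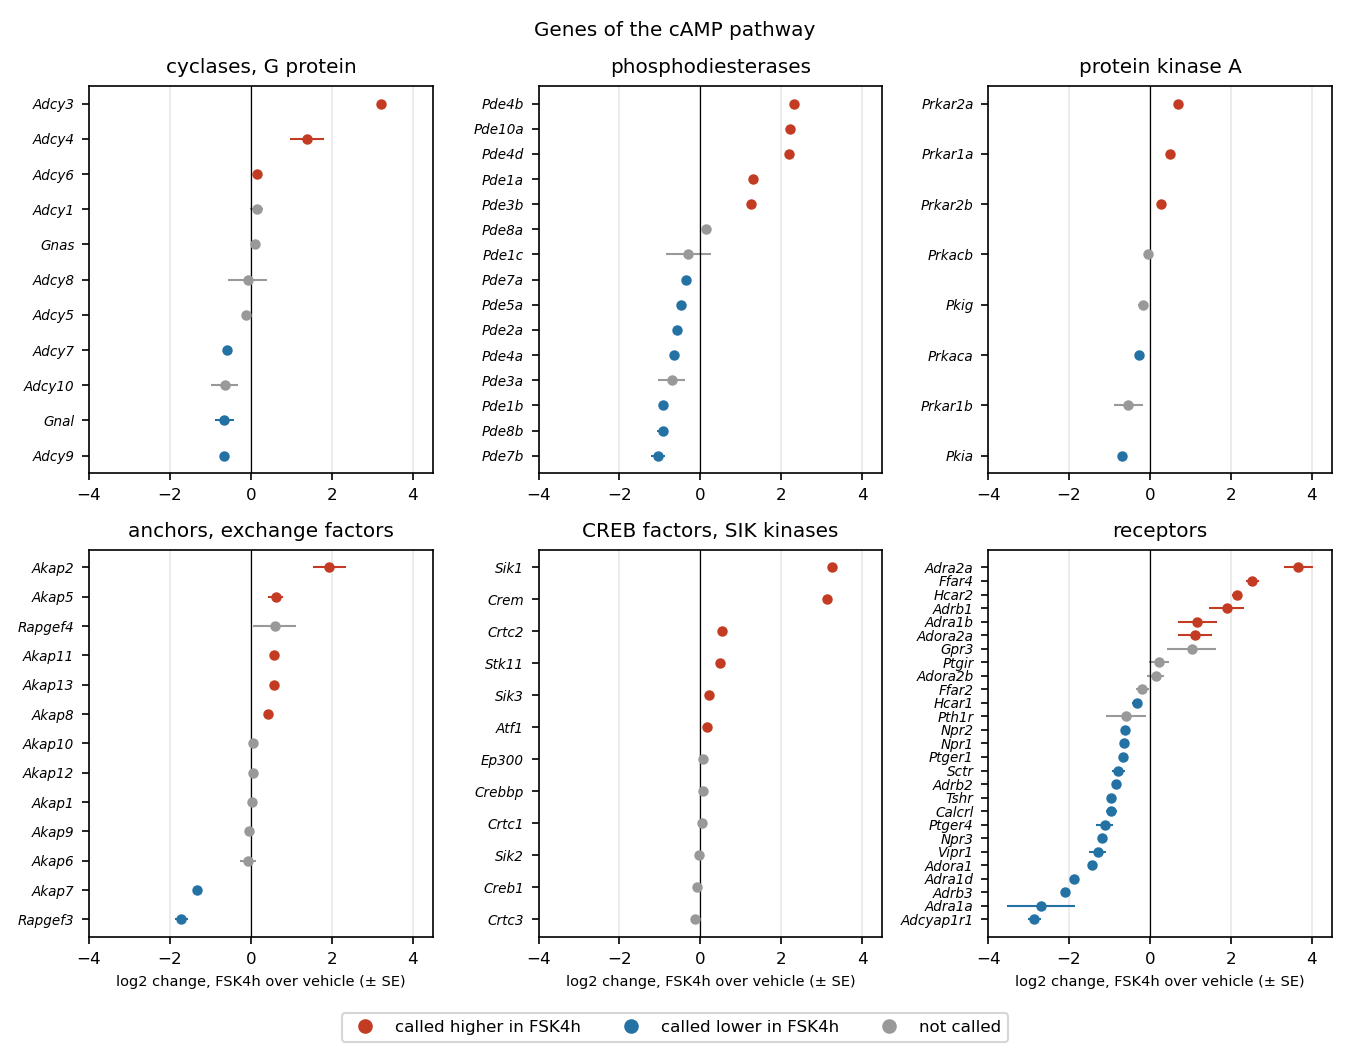
Log2 change of FSK4h over vehicle (± SE, all 15 libraries in the fit) of each tested gene in 6 lists of the cAMP pathway, coloured by call. The receptor list is wider than that pathway and includes Adra1d and the natriuretic peptide receptors. Adcy3, Sik1, Crem and the receptor Adra2a lie above 3, the protein kinase A genes lie within 0.71 of 0, and most receptors lie left of 0. With library size alone every point lies 0.19 lower, which puts more of the CREB list, the anchors and the protein kinase A genes left of 0.

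The immediate early genes, most of them transcription factors, moved as a group. Of 28 tested, 26 were called higher (17 by 2-fold) and none lower, with a median log2 change of 1.58, where 28.4% of all genes were called higher. These counts were 26 and 0 with library size alone as well, of which 16 by 2-fold. Nr4a3, an orphan nuclear receptor, was at 414, 458 and 433 CPM in FSK4h and at 2.25, 2.33 and 1.94 CPM in vehicle. The vehicle level was close to none, and the log2 change was 7.63 ± 0.19 (edgeR adjusted p = 7.0e-12). Its relatives differed in level: Nr4a1 was at 152, 152 and 141 CPM in FSK4h and at 13.4, 10.6 and 10.4 CPM in vehicle (3.69 ± 0.088), and Nr4a2 at 44.1, 36.1 and 45.3 CPM in FSK4h and at 4.69, 3.94 and 5.14 CPM in vehicle (3.19 ± 0.12). Per kilobase of gene length, Nr4a3 had 77.7 CPM in FSK4h and 0.388 in vehicle, Nr4a1 60.0 and 4.63, and Nr4a2 12.5 and 1.37 in the same order, so Nr4a3 was the lowest of the 3 in vehicle and the highest in FSK4h.

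Of the AP-1 genes, Junb rose by 2.66 ± 0.075, Fosb by 2.64 ± 0.35, Fos by 2.27 ± 0.15, Fosl2 by 1.06 ± 0.044 and Jun by 0.61 ± 0.062. Jund, at 85.3 CPM in FSK4h and 74.0 CPM in vehicle, was not called. Fosl1 rose by 2.79 ± 0.12, but 62.4% of its exonic bases overlap Ccdc85b on the other strand and the 2 cannot be told apart without strand. Ier3 was at 162, 171 and 138 CPM in FSK4h and at 7.81, 6.96 and 8.14 CPM in vehicle, the second largest rise of the list at 4.36 ± 0.094. The stress factor Atf3 rose by 2.58 ± 0.12, the small Maf protein Maff by 2.44 ± 0.097, and the zinc finger factors Egr2 by 1.67 ± 0.11, Klf10 by 1.62 ± 0.055 and Klf4 by 1.54 ± 0.070. Egr1, a marker of early growth factor signalling, rose by only 0.49 ± 0.081, and Klf6 was at 103 CPM in FSK4h and 98.0 CPM in vehicle, not called.

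Because the cAMP response element is the textbook site of CREB, the 250 bases before the annotated start of 5 genes that rose are shown, from RefSeq on GRCm38.p6, with the 5-base core TGACG on either strand (CGTCA when read on the printed strand) in capitals. Where TGACG and CGTCA overlap they form the full palindrome TGACGTCA. Areg lies on chr5:91139349-91139598 (+), Maff on chr15:79347270-79347519 (+), Dusp1 on chr17:26508473-26508722 (−), Nr4a1 on chr15:101266596-101266845 (+) and Nr4a3 on chr4:48045055-48045304 (+).
Areg: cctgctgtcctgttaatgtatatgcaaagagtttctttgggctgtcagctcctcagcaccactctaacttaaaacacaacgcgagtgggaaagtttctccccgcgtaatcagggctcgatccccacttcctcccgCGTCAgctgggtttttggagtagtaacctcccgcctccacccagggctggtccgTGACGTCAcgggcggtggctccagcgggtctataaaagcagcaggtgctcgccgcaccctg
Maff: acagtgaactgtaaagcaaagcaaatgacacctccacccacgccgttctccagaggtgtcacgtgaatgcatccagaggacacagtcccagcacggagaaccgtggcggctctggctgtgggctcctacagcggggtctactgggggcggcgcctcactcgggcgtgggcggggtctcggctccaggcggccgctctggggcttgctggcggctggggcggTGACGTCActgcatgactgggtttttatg
Dusp1: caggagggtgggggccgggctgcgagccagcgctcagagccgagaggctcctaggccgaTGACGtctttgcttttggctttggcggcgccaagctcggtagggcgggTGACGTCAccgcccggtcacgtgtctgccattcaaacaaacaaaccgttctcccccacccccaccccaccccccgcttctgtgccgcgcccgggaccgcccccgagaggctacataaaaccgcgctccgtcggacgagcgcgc
Nr4a1: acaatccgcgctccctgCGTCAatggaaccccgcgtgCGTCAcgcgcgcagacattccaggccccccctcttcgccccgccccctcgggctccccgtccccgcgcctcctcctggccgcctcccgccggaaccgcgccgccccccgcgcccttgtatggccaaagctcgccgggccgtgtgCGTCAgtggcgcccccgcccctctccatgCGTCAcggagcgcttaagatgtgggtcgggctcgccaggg
Nr4a3: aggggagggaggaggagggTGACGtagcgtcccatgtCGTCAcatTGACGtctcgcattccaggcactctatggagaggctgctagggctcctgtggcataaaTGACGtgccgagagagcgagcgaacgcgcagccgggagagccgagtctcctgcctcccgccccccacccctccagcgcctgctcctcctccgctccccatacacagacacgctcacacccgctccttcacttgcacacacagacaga

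The full element begins 61 bases before the start in Areg, 29 in Maff and 143 in Dusp1, and the windows of Nr4a1 and Nr4a3 hold 4 cores each and no full element. The 5 windows were chosen after the sequences were searched, and of the 3 windows that the table has for Maff the one with the element is printed. Of 118 genes of the cAMP lists, the early response lists and the largest changes that had a sequence, 6 held the full element: Areg, Maff, Dusp1, Btg2 and Prkar1a, which were called higher, and the phosphatase Dusp8, which was not called (called lower with library size alone). Many of the 118 were called higher without holding the element, because the set includes the largest rises and the early response lists. The calls of these 6 genes therefore do not link the element to a rise. Over all 32851 promoters of the table, the full element was found in 1.55% and the core in 17.8% of windows of this length, on either strand. These shares count windows, whereas a gene was counted here if any of its windows held the letters. Some genes had several windows, such as Prkar1a with 6, so the shares and the counts of genes cannot be compared. Of the 15 genes with the largest rise, 13 had a sequence, of which 1 (Areg) held the full element and 6 the core. Of the 14 falls named above 11 had a sequence, of which none held the full element and 3 held the core. For the immediate early list 23 of 29 genes (79.3%) had a sequence, and for all tested genes 10736 of 14421 (74.4%), too few for a share to be given. A match is a description of the letters and not of a bound site.

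Inhibitors of growth factor signalling rose with the immediate early genes. Of 16 dual-specificity phosphatases, Sprouty and Spred proteins tested, 12 were called higher (9 by 2-fold) and 2 lower, with a median log2 change of 1.12. Over all genes 28.4% were called higher (5.44% by 2-fold) and 30.7% lower. Dusp5, a nuclear phosphatase of the ERK kinases, was at 43.6, 46.6 and 41.5 CPM in FSK4h and at 8.70, 8.44 and 8.59 CPM in vehicle (2.36 ± 0.11, edgeR adjusted p = 1.1e-19). Dusp4 rose by 1.53 ± 0.063, Dusp6 by 1.47 ± 0.13, Spry4 by 1.47 ± 0.066, Dusp10, which acts on p38 and JNK, by 1.39 ± 0.062, and Dusp1, whose promoter is printed above, by 1.04 ± 0.064. Spry1 and Dusp7 went the other way, with falls of 0.77 ± 0.10 and 0.49 ± 0.066. Il17rd, which also restrains growth factor signalling to ERK, was at 3.44, 2.31 and 3.46 CPM in FSK4h and at 17.3, 18.9 and 17.6 CPM in vehicle, one of the 15 largest falls at −2.53 ± 0.14.

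Proteins that desensitize G protein-coupled receptors were mixed, with 6 of 17 called higher and 6 lower (3 and 8 with library size alone). Arrdc3, an α-arrestin that turns down β-adrenergic receptors, was at 153, 200 and 150 CPM in FSK4h and at 36.2, 38.6 and 38.8 CPM in vehicle (2.14 ± 0.093, edgeR adjusted p = 1.4e-12) and was the only one to rise by 2-fold. The regulators of G protein signalling Rgs3 and Rgs12 fell by 1.80 ± 0.13 and 1.04 ± 0.062. The receptor kinase Grk5 rose by 0.69 ± 0.061.

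The receptors for hormones, prostaglandins and natriuretic peptides were mostly lower. Of 27 tested, 6 were called higher and 16 lower (6 and 8 by 2-fold), with a median log2 change of −0.63. Among all genes 28.4% were called higher and 30.7% lower (5.44% and 6.30% by 2-fold). A further 9 listed receptors had too few counts to test. Adrb3, the β-adrenergic receptor typical of fat cells, was at 27.5, 30.8 and 28.1 CPM in FSK4h and at 114, 137 and 120 CPM in vehicle, a log2 change of −2.10 ± 0.070 (edgeR adjusted p = 5.7e-21). Adcyap1r1, the receptor of the peptide PACAP, was at 11.1, 12.4 and 14.8 CPM in FSK4h and at 87.6, 104 and 85.5 CPM in vehicle (−2.86 ± 0.16). Mc5r, a melanocortin receptor outside the list, was at 0.9898, 0.728 and 1.73 CPM in FSK4h and at 7.78, 8.40 and 8.07 CPM in vehicle (−2.81 ± 0.19). No FSK4h library of these 3 genes reached the vehicle range. For Adcyap1r1 and Mc5r this was a condition of their choice, and 65.0% of all tested genes had groups that did not overlap.

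Receptors coupled to the inhibitory G protein, and receptors of other coupling, were found on both sides. Hcar2, the nicotinic acid receptor, rose by 2.15 ± 0.13 and Adra2a, the α2-adrenergic receptor, by 3.67 ± 0.35, although Adra2a had only 28 counts over the vehicle libraries and a ratio of 12.97 (95% interval 7.53 to 24.2). Adora1, the adenosine A1 receptor, fell by 1.42 ± 0.090, with 20.1% of its exonic bases overlapping a gene on the other strand. Ffar4, a receptor of long-chain fatty acids, rose by 2.53 ± 0.16, and Adra1d, an α1-adrenergic receptor, fell by 1.89 ± 0.098. Gpr35, an orphan receptor outside the list, was at 35.2, 39.4 and 38.9 CPM in FSK4h and at 1.17, 1.67 and 1.21 CPM in vehicle (4.80 ± 0.13).

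Several secreted ligands changed together with their receptors. Nppc, the C-type natriuretic peptide, was at 13.6, 14.2 and 11.96 CPM in FSK4h, and 2 of the 3 vehicle libraries had no count. Its receptors, the signalling receptor Npr2 and the clearance receptor Npr3, fell by 0.61 ± 0.063 and 1.19 ± 0.080. Il6 was at 25.6, 24.9 and 26.5 CPM in FSK4h and at 0.123, 0.197 and 0.330 CPM in vehicle, a ratio of 116 (95% interval 62.8 to 242). Lif, a cytokine of the same family, was at 56.2, 56.9 and 52.4 CPM in FSK4h and at 2.84, 2.43 and 3.08 CPM in vehicle (4.31 ± 0.13). Among the receptors of this family, Osmr rose to 410 ± 2.96 CPM in FSK4h, against 115 ± 5.30 CPM in vehicle (1.84 ± 0.048), while Lifr fell by 1.02 ± 0.052 and Il6ra by 0.45 ± 0.061. Cxcl12, a chemokine, fell by 1.27 ± 0.077, and Ackr3, its scavenger receptor, was at 64.8, 67.7 and 66.4 CPM in FSK4h and at 5.00, 5.51 and 4.70 CPM in vehicle (3.70 ± 0.094). Over the whole list of 35 cytokines, chemokines and receptors 18 were called higher (14 by 2-fold) and 7 lower (3 by 2-fold). All tested genes had 28.4% higher (5.44% by 2-fold) and 30.7% lower (6.30% by 2-fold).

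Growth factor ligands were as often lower as higher, with 11 of 25 called higher and 10 lower, but 8 of the rises and 2 of the falls were of 2-fold or more. Areg was at 5.25, 4.85 and 6.63 CPM in FSK4h, with 2 counts over the 3 vehicle libraries, a ratio of 252 (95% interval 44.7 to 9974). The angiogenic factor Vegfa rose by 2.06 ± 0.053 to 554 CPM in FSK4h, against 133 CPM in vehicle. Fgf2 rose by 2.32 ± 0.12 and Pdgfc by 1.25 ± 0.061, while Angpt1, a ligand of the endothelial receptor Tie2, fell by 1.44 ± 0.081 and Figf, which encodes VEGF-D, by 1.19 ± 0.10. Penk, the precursor of enkephalin peptides, was at 7.07, 7.64 and 6.09 CPM in FSK4h and at 0.123, 0.263 and 0.183 CPM in vehicle, a ratio of 34.7 (95% interval 18.1 to 76.6).

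Of the adipokines and hormones, 13 of 29 tested were called higher and 5 lower (11 each with library size alone), of which 9 and 2 by 2-fold. Inhba, a subunit of activin A, was at 180, 183 and 177 CPM in FSK4h and at 18.4, 15.9 and 17.9 CPM in vehicle (3.37 ± 0.11, edgeR adjusted p = 7.4e-15). Fst, the follistatin that binds activin, rose as well, to 29.2, 29.8 and 32.8 CPM in FSK4h, against 9.20, 9.09 and 8.26 CPM in vehicle, while Inhbb, the subunit of activin B, fell by 1.00 ± 0.098. Metrnl rose by 1.72 ± 0.062. Adipoq, the adiponectin gene, was at 1427 to 1528 CPM in FSK4h and 1450 to 1626 CPM in vehicle and was not called, and Lep had 44 counts over the vehicle libraries and none in FSK4h, at least 7.23-fold lower.

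In the TGF-β and BMP pathway 19 of 41 tested genes were called higher and 10 lower (10 and 2 by 2-fold). With library size alone 13 were higher and 18 lower, or 41.9% of its calls higher, against 27.3% over all tested genes. The type I receptors Tgfbr1 and Acvr1b rose by 1.36 ± 0.053 and 1.62 ± 0.074, and so did the SMAD repressor Skil by 1.89 ± 0.061 and the BMP target Id1 by 1.82 ± 0.087. Gdf5 fell by 2.05 ± 0.24, and the BMP antagonist Grem1 fell by 0.97 ± 0.092. In the Wnt pathway 8 of 41 were called higher and 17 lower (4 and 25 with library size alone), 2 and 9 of them by 2-fold. The Wnt receptors Fzd2 fell by 1.19 ± 0.063 and Fzd4 fell by 1.14 ± 0.075, while Fzd1 rose by 0.40 ± 0.048 and Wnt11 by 2.57 ± 0.31 from a low level.

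The cyclooxygenases rose, with the prostaglandin list as a whole near the background at 6 of 18 called higher and 4 lower (6 each with library size alone, and 2 lower without FSK4h library S5). Ptgs2, the inducible cyclooxygenase, was at 870, 880 and 845 CPM in FSK4h and at 140, 125 and 146 CPM in vehicle (2.66 ± 0.14, edgeR adjusted p = 1.1e-08). Ptgs1, its constitutive partner, rose by 1.53 ± 0.075, the terminal synthase Ptges by 0.93 ± 0.088 and the prostaglandin transporter Slco2a1 by 1.27 ± 0.053.

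Enzymes on the path to hyaluronan, a sugar polymer of the pericellular matrix, were among the strongest rises. Gfpt2, which makes the amino sugar that starts the hexosamine pathway, was at 73.5, 71.3 and 73.8 CPM in FSK4h and at 2.93, 3.02 and 2.75 CPM in vehicle (4.65 ± 0.10, edgeR adjusted p = 1.8e-28). Uap1, which forms the activated sugar UDP-N-acetylglucosamine, was at 1150, 1147 and 1112 CPM in FSK4h and at 56.02, 59.25 and 53.3 CPM in vehicle (4.34 ± 0.060, edgeR adjusted p = 5.6e-33). Has2, a hyaluronan synthase, was at 124, 120 and 121 CPM in FSK4h and at 6.82, 6.43 and 5.50 CPM in vehicle (4.28 ± 0.082, edgeR adjusted p = 5.7e-30). Replicates of each group lay close together in all 3 genes, 19.4-fold to 25.0-fold apart between groups.

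Has1 rose by 2.44 ± 0.12, while Has3, the remaining synthase, was at 12.5 CPM in both FSK4h and vehicle. In the matrix list of 62 genes tested, 24 were called higher and 15 lower (18 and 26 with library size alone), with 9 and 3 of at least 2-fold. The aggrecanases moved apart: Adamts4 was at 86.0, 76.5 and 84.6 CPM in FSK4h and at 13.2, 10.3 and 12.1 CPM in vehicle (2.79 ± 0.095), and Adamts5 at 30.6, 30.8 and 31.1 CPM in FSK4h and at 154, 146 and 153 CPM in vehicle (−2.29 ± 0.056). The metalloprotease inhibitor Timp1 rose by 2.64 ± 0.073, and the basement membrane collagen Col4a1 by 0.91 ± 0.042 to 3202 CPM in FSK4h, against 1703 CPM in vehicle.

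At the lipid droplet, coat proteins and lipase regulators changed in both directions, while the main lipases were not called. Pnpla2, the triglyceride lipase, was at 423, 433 and 421 CPM in FSK4h and at 410, 441 and 409 CPM in vehicle, and Lipe, the hormone-sensitive lipase, at 362, 399 and 381 CPM in FSK4h and at 343, 376 and 349 CPM in vehicle. Both overlapped between groups and neither was called. Plin2, a coat protein of droplets, was at 1636, 1663 and 1618 CPM in FSK4h and at 317, 347 and 326 CPM in vehicle (2.31 ± 0.051, edgeR adjusted p = 2.6e-28), far apart between groups. Of the other coat proteins, Plin4 rose by 0.49 ± 0.044, Plin1 fell by 0.44 ± 0.086 and Plin3 fell by 0.87 ± 0.068. Of the lipase inhibitors, Hilpda was at 124, 144 and 116 CPM in FSK4h and at 7.25, 5.02 and 6.16 CPM in vehicle (4.38 ± 0.13), whereas G0s2 was at 36.9, 37.4 and 33.3 CPM in FSK4h and at 79.9, 98.9 and 96.5 CPM in vehicle (−1.35 ± 0.11). Abhd5, the coactivator of the lipase, rose by 0.93 ± 0.049, with 26.1% of its exonic bases overlapping a gene on the other strand, and Pnpla3 fell by 1.72 ± 0.083. The list of 19 held 7 called higher and 6 lower, or 6 and 8 with library size alone.

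Of the enzymes that activate and store fatty acids, some rose strongly and others fell or were not called. Acsl4, an acyl-CoA synthetase that prefers arachidonic acid, was at 1518, 1575 and 1537 CPM in FSK4h and at 180, 182 and 200 CPM in vehicle (3.04 ± 0.054, edgeR adjusted p = 8.0e-31), and Acsl1, the main synthetase of fat cells, rose by 1.32 ± 0.071. Dgat1, which completes triglyceride synthesis, was at 881, 908 and 916 CPM in FSK4h and at 225, 262 and 241 CPM in vehicle (1.89 ± 0.049). Pck1, which supplies the glycerol backbone, rose by 2.09 ± 0.074. Lpin3, a phosphatidate phosphatase, fell by 0.58 ± 0.098 and Gpd1, which makes glycerol phosphate, fell by 0.33 ± 0.093. Dgat2, the other enzyme of the last step, was at 117 CPM in FSK4h and 133 CPM in vehicle and was not called, but was called lower with library size alone, with no filter on low counts and without vehicle library S1. Fasn, the fatty acid synthase, fell by 1.09 ± 0.072 and Acaca, the carboxylase before it, by 0.49 ± 0.050. Lipid uptake and activation had 12 of 21 called higher and 3 lower (8 and 4 with library size alone), and fatty acid and triglyceride synthesis 9 of 32 higher and 13 lower (5 and 19 with library size alone).

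The insulin pathway held changes in both directions, among its substrates as well as its lipid kinase subunits. Irs2 was at 418, 432 and 446 CPM in FSK4h and at 111, 108 and 112 CPM in vehicle (1.97 ± 0.046, edgeR adjusted p = 1.0e-27), while Irs3, a substrate found in rodent fat, was at 1.04, 1.82 and 1.23 CPM in FSK4h and at 8.77, 11.1 and 10.6 CPM in vehicle (−2.93 ± 0.18). Irs1 was at 531 CPM in FSK4h and 579 CPM in vehicle, a small fall (−0.13 ± 0.049) whose call was lost with relative log expression factors (edgeR adjusted p = 0.070), with DESeq2 and without FSK4h library S4 or S6 or vehicle library S2. The regulatory subunits of phosphoinositide 3-kinase Pik3r1, Pik3r2 and Pik3r3 had log2 changes of −1.01 ± 0.047, −0.80 ± 0.059 and −1.16 ± 0.072. Of the catalytic subunits, Pik3cb fell by 0.46 ± 0.063 and Pik3ca rose by 0.24 ± 0.048, a call that was lost with library size alone. Insr, the receptor, rose by 0.50 ± 0.046 and Trib1, a pseudokinase, by 2.15 ± 0.071. Tbc1d4, which controls movement of the glucose transporter GLUT4, fell by 1.37 ± 0.065, and the GLUT4 gene Slc2a4 was at 32.1, 45.7 and 40.1 CPM in FSK4h and at 84.6, 108 and 98.1 CPM in vehicle (−1.31 ± 0.15). Of 45 genes 15 were called higher and 18 lower (7 and 25 with library size alone), 4 and 6 of them by 2-fold. In all 73.3% were called and 22.2% by 2-fold, against 59.0% and 11.7% of all genes.

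The glucose transporters moved apart. Slc2a1, which encodes GLUT1, was at 637, 710 and 616 CPM in FSK4h and at 89.3, 90.5 and 99.7 CPM in vehicle (2.81 ± 0.064, edgeR adjusted p = 3.1e-23), and per kilobase of gene length it exceeded Slc2a4 in FSK4h (254 against 13.9 CPM per kilobase) and about equalled it in vehicle (36.2 against 34.4 CPM per kilobase). Slc16a1, a carrier of lactate and pyruvate, was at 1541, 1639 and 1517 CPM in FSK4h and at 220, 240 and 239 CPM in vehicle (2.75 ± 0.051). Pdk4, which blocks entry of pyruvate into the citric acid cycle, rose by 1.64 ± 0.057 and the glycogen synthase Gys1 by 1.44 ± 0.055, while the glycogen phosphorylase Pygb fell by 0.89 ± 0.050. Of 46 genes of the hypoxia response and glucose handling 28 were called higher and 10 lower (17 and 3 by 2-fold), with a median of 0.64. The shares over all genes were 28.4% higher and 30.7% lower (5.44% and 6.30% by 2-fold).

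Of the transcription factors and coregulators of the adipocyte programme, 14 of 48 were called higher and 20 lower (12 and 31 with library size alone), 5 and 3 of them by 2-fold. Pparg, the main regulator of fat cell identity, was at 186, 218 and 207 CPM in FSK4h and at 186, 209 and 197 CPM in vehicle, overlapping and not called (called lower by 0.15 with library size alone). The early C/EBP factors Cebpb and Cebpd rose by 1.60 ± 0.12 and 1.78 ± 0.10, and 20.7% of the exonic bases of Cebpb overlap Tmem189 on the other strand. Zfp516, a zinc finger activator of brown fat genes, rose by 1.22 ± 0.050, Irf4 by 1.02 ± 0.067, and the coactivator Ppargc1a by 1.22 ± 0.078. Klf15 fell to 3.41, 3.56 and 3.82 CPM in FSK4h, against 11.7, 15.1 and 14.3 CPM in vehicle, and Rxra, Stat5a and Stat5b had log2 changes of −0.72 ± 0.047, −0.70 ± 0.053 and −0.71 ± 0.053. Ucp1, the uncoupling protein of brown and beige fat, reached 8.77, 8.82 and 7.67 CPM in FSK4h and had 7 counts over the vehicle libraries, a ratio of 95.1 (95% interval 36.8 to 351).

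The clock genes held 12 of 24 called higher and 6 lower (7 and 4 by 2-fold). Over all genes these shares were 28.4% and 30.7% (5.44% and 6.30% by 2-fold). Rorb, a nuclear receptor of the ROR family, was at 349, 341 and 332 CPM in FSK4h and at 80.3, 84.8 and 85.5 CPM in vehicle (2.03 ± 0.053). The repressors Per1, Cry1 and Nfil3 rose by 1.25 ± 0.074, 1.24 ± 0.076 and 2.38 ± 0.096. Per3 was at 18.2, 15.4 and 18.0 CPM in FSK4h and at 72.8, 73.5 and 67.9 CPM in vehicle (−2.04 ± 0.065), and the activators Dbp, Hlf and Tef, which bind the same sites as NFIL3, had log2 changes of −1.59 ± 0.12, −1.65 ± 0.13 and −0.91 ± 0.047. A share of 29.3% of the exonic bases of Dbp overlaps a gene on the other strand. Whether cells of both groups were harvested at the same time of day is not given in the sources used here.

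Ribosome biogenesis rose almost throughout, in small steps. Of 49 genes tested, 47 were called higher and 1 lower, with a median log2 change of 0.70, while only 4 passed 2-fold, and with library size alone 44 were higher and 2 lower. Nop2, an rRNA methyltransferase, was at 138, 137 and 133 CPM in FSK4h and at 64.8, 66.2 and 65.0 CPM in vehicle (1.06 ± 0.053, edgeR adjusted p = 2.7e-18). The RNA helicase Ddx21 rose by 0.99 ± 0.049, the snoRNP protein Nop58 by 1.00 ± 0.055 and Heatr1 by 0.99 ± 0.057. Taf1b, a subunit of the RNA polymerase I initiation factor, fell by 0.37 ± 0.12, a call that was lost without FSK4h library S5 (edgeR adjusted p = 0.054). Myc, a transcription factor known to drive such genes, rose by 0.88 ± 0.080, and the ribosomal RNA precursor Rn45s was at 95720 ± 2673 CPM in FSK4h and 82320 ± 629 CPM in vehicle and was not called.

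Genes of amino acid supply moved in the same direction, with 31 of 42 ATF4 targets and tRNA synthetases called higher and 2 lower (24 and 8 with library size alone). The synthetase Eprs rose by 1.71 ± 0.045, the transporters Slc7a1 and Slc3a2 by 1.43 ± 0.055 and 1.29 ± 0.050, and the folate enzyme Mthfd2 by 1.04 ± 0.051. Of the 21 genes of mRNA decay and translational repression, 14 were called higher and none lower (10 and 4 with library size alone, and 1 lower without vehicle library S1 or FSK4h library S4), 3 of them by 2-fold. Zc3h12a, a nuclease that degrades the mRNA of Il6 and other cytokines, rose by 1.91 ± 0.086, the deadenylase Cnot7 by 1.33 ± 0.061 and the RNA-binding protein Cpeb4 by 1.34 ± 0.062.

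**Figure D3:**
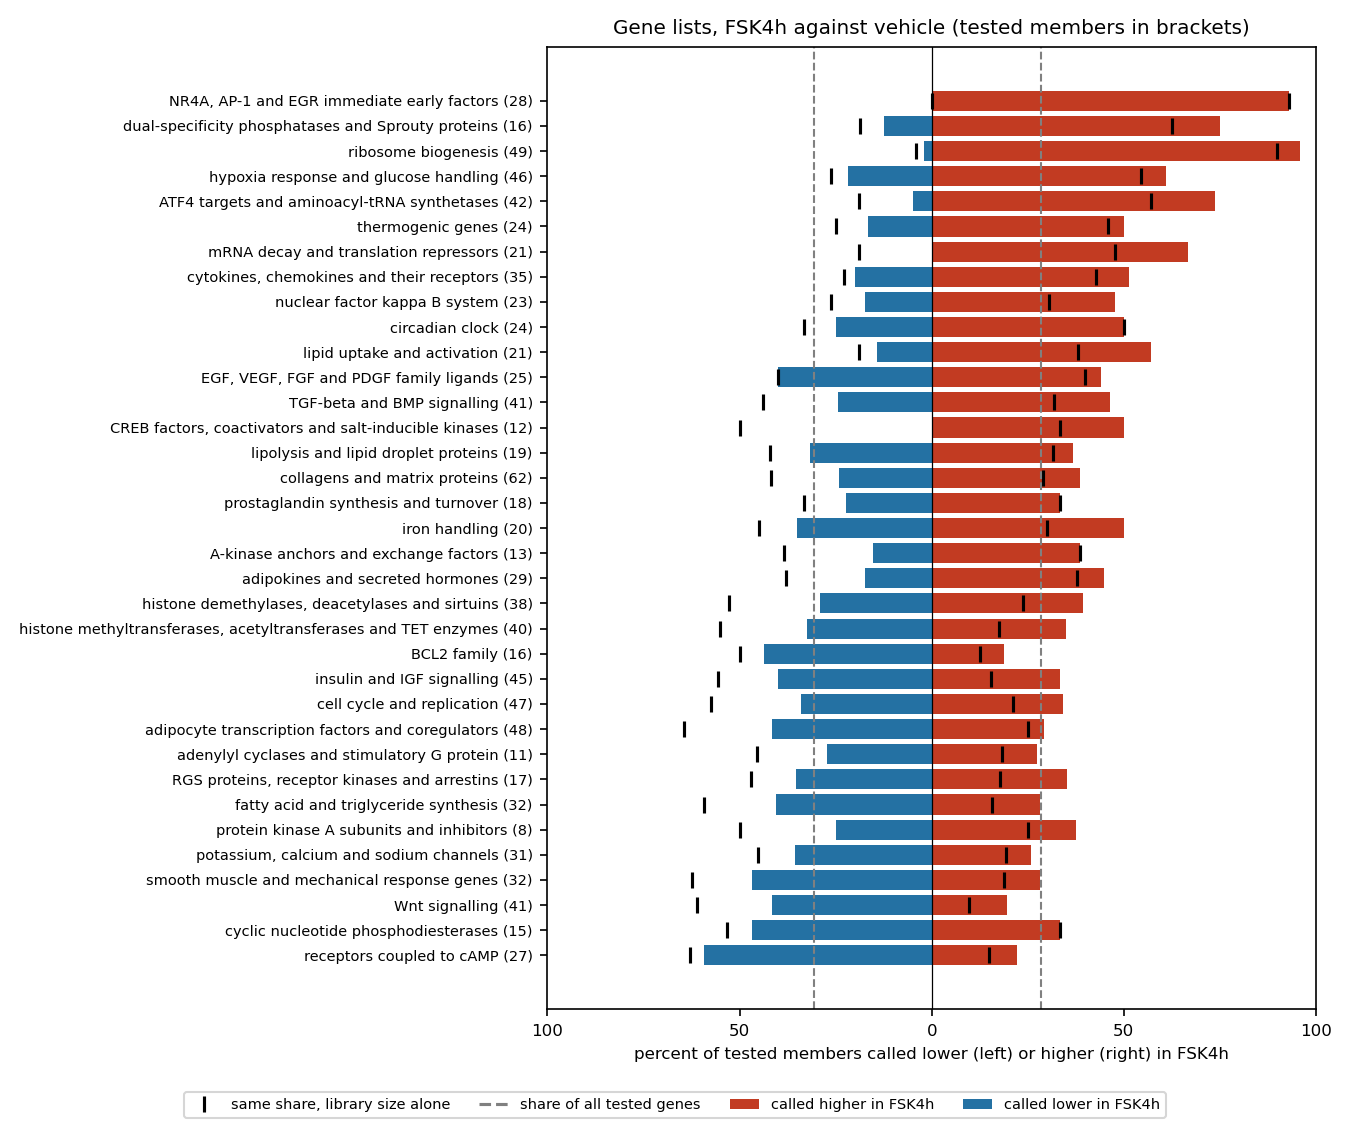
Share of the tested members of each list (number in brackets) called lower (left bars) and higher (right bars) in FSK4h against vehicle, ordered by median log2 change. Dashed lines give the shares of all tested genes with TMM, 30.7% lower and 28.4% higher. Black ticks give the list shares with library size alone, for which the dashed lines are not the background. The lists from the EGF, VEGF, FGF and PDGF ligands down to the histone methyltransferases, and the protein kinase A list, then no longer hold more higher than lower calls. The immediate early, phosphatase, ribosome biogenesis and hypoxia lists still do. Over all tested genes 27.3% of calls were then higher, against 50% for the EGF, VEGF, FGF and PDGF ligands and 24.1% for the histone methyltransferases.

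Other groups were near the background or mixed. Of the BCL2 family 3 of 16 were called higher and 7 lower (2 and 8 with library size alone, and 5 higher without FSK4h library S6): the pro-apoptotic Bmf was at 1.54, 2.06 and 1.98 CPM in FSK4h and at 29.5, 31.9 and 28.6 CPM in vehicle (−4.03 ± 0.12), Bbc3 and the survival protein Bcl2 fell by 1.58 ± 0.14 and 1.13 ± 0.10, and Bnip3 rose by 1.08 ± 0.084. Pawr, another pro-apoptotic gene, was at 3.82, 3.07 and 4.25 CPM in FSK4h and at 23.7, 22.5 and 21.3 CPM in vehicle (−2.59 ± 0.14). The cell cycle list had 16 of 47 called in each direction, or 10 higher and 27 lower with library size alone. Its members included the kinase inhibitors Cdkn1a, which rose by 0.83 ± 0.046, and Cdkn2b, which fell by 1.38 ± 0.076, and the cyclin Ccnd1, which fell by 1.22 ± 0.089.

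The nuclear factor κB list had 11 of 23 called higher and 4 lower (7 and 6 with library size alone, and 2 lower without FSK4h library S5), 4 of the rises by 2-fold. They included the inhibitor-like coactivator Nfkbiz at 2.21 ± 0.060 and Nfkb1 at 1.01 ± 0.051. Histone demethylases and deacetylases had 15 of 38 higher and 11 lower, or 9 and 20 with library size alone. Kdm3a and Jmjd6 rose by 1.16 ± 0.050 and 1.33 ± 0.069, and the deacetylases Hdac9 fell by 2.23 ± 0.19 and Hdac11 fell by 1.68 ± 0.17. Tet2, which oxidizes methylated cytosine, rose by 1.07 ± 0.051, and Ezh1 fell by 1.03 ± 0.076. Among the iron genes, 10 of 20 were higher and 7 lower (6 and 9 with library size alone). The haem oxygenase Hmox1 rose by 2.20 ± 0.086 and the metal importer Slc39a14 by 1.41 ± 0.062, while the exporter Slc40a1 was at 1.02, 1.29 and 1.58 CPM in FSK4h and at 16.6, 14.8 and 15.5 CPM in vehicle (−3.61 ± 0.15).

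Smooth muscle and mechanical response genes had 9 of 32 called higher and 15 lower (6 and 20 with library size alone), with the YAP and TAZ target Cyr61 lower by 0.92 ± 0.054 and Wwtr1, which encodes TAZ, and its partner Tead1 higher by 0.73 ± 0.046 and 0.91 ± 0.052. Channels had 8 of 31 higher and 11 lower (6 and 14 with library size alone), with the calcium channel Cacna1a lower by 2.06 ± 0.20. Of the 8 progenitor and fibroblast markers tested, 2 were called higher and 1 lower (2 and 3 with library size alone, and 2 lower without FSK4h library S6). Cd55, called higher, had 132 counts over the FSK4h libraries and 8 over the vehicle libraries, a ratio of 16.7 (95% interval 6.24 to 63.2). Pdgfra was at 369, 369 and 381 CPM in FSK4h and at 210, 209 and 206 CPM in vehicle (0.84 ± 0.043), while Pdgfrb was at 143, 148 and 169 CPM in FSK4h and at 416, 399 and 392 CPM in vehicle (−1.39 ± 0.057). Lfng, which modifies Notch receptors, was at 5.33, 5.06 and 4.79 CPM in FSK4h and at 42.8, 53.9 and 51.5 CPM in vehicle (−3.28 ± 0.11).

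The second comparison asked how the 4 h state differed from that after 1 day of forskolin. Between FSK4h and FSK1D 4164 genes (28.9%) were called higher in FSK4h and 4096 (28.4%) lower, 57.3% in all (2709 and 5974 with library size alone). Nr4a3 was at 435 ± 22.2 CPM in FSK4h and 24.3 ± 5.58 CPM in FSK1D (log2 change FSK4h over FSK1D 4.16), and Tll1 at 148 ± 8.86 CPM in FSK4h and 9.16 ± 0.57 CPM in FSK1D (4.01). Dgat1 was at 902 CPM in FSK4h and 216 CPM in FSK1D (2.06), Rorb at 341 and 85.8 CPM (1.99) and Nop2 at 136 and 56.8 CPM (1.26) in the same order, where vehicle had 243, 83.5 and 65.4 CPM. Among the falls, Lfng was at 5.06 CPM in FSK4h and 37.9 CPM in FSK1D (−2.90), and Bmf at 1.86 CPM in FSK4h and 19.9 CPM in FSK1D (−3.44). Some genes were not called between the times: Gpr35 was at 37.8 ± 2.31 CPM in FSK4h and 42.4 ± 1.94 CPM in FSK1D, Osmr at 410 and 412 CPM, and Pawr at 3.71 and 4.08 CPM in the same order. Prg4 and Nr4a2 were lower at 4 h than at 1 day, with 63.1 CPM in FSK4h and 199 CPM in FSK1D for Prg4 and 41.9 CPM in FSK4h and 73.8 CPM in FSK1D for Nr4a2.

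**Figure D4:**
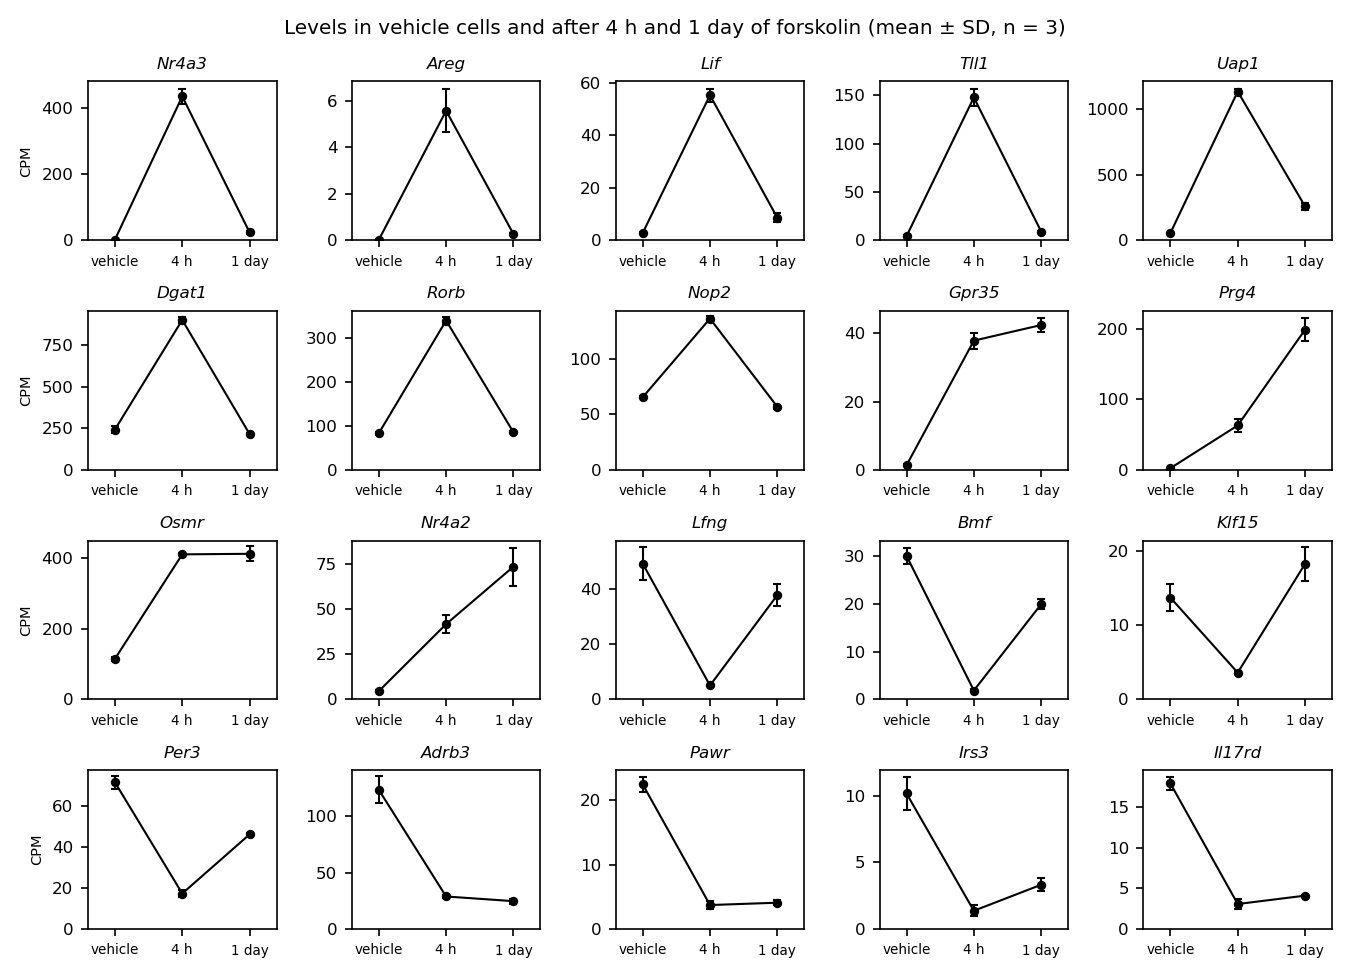
TMM-scaled CPM (mean ± SD, n = 3) of 20 genes, chosen after their values were seen, in vehicle cells and after 4 h and 1 day of forskolin. The top 8 panels show genes highest at 4 h, Gpr35, Prg4, Osmr and Nr4a2 genes still high at 1 day, and the last 8 panels genes lowest or already low at 4 h, such as Lfng at 5.06 CPM in FSK4h and Adrb3 at 28.8 CPM in FSK4h and 24.7 CPM in FSK1D.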

How the data were processed

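Per the labels' protocols, RNA was depleted of ribosomal RNA and sequenced. Per the submitters' processing notes, fastp, STAR and featureCounts were used with GRCm38 (mm10). Their versions, the annotation, and the handling of strand and read pairs are not stated in these sources. The authors' deposited table holds raw read counts for 24421 genes. Counts of 1 to 10 were even in 61.8% to 64.8% of cases, so intervals of low counts (95%, exact binomial) and floors (3 counts over the group) used halved counts. Columns name a group but no replicate of the labels. Nothing states that libraries came from separate cultures, so the p-values reflect spread among these libraries alone, and that spread may be technical. Libraries of a group differed by more than sampling noise.

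Genes passing filterByExpr (14421) were tested in R 4.3.3 with edgeR 4.0.16 (TMM, robust quasi-likelihood fit, 1 mean per group, all 15 libraries), checked on simulated counts, with DESeq2 1.42.0 as an alternative. Named genes were the 15 largest rises and falls (called, at least 5 CPM, no overlap), any member of the cAMP and early response lists, and of other lists up to 4 called members per direction with the smallest p, with relatives that complete a family. Cd55, Gpd1 and Lpin3 were named after their values were seen. Genes and lists were chosen with earlier results of these data known. Promoters came from RefSeq and exon overlaps from GENCODE vM21. Reads of genes that overlap on opposite strands cannot be told apart here; shares over 20% are given beside the gene, and they were 18% for Sik2 and 15% for Cebpd and Lipe. Single values of 3 genes, 1 of them among the 15 largest falls, are not reported here, and counts over lists include them.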

Additional observations from a re-analysis of the deposited data

Results flagged for a closer look

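The 15 rises and 14 falls named for their size of change and Ppargc1a, 30 genes in all, were also compared between 4 h and 1 day of forskolin, which share the vehicle libraries as their baseline. The difference between the effects at 4 h and at 1 day is then the difference between FSK4h and FSK1D (edgeR's quasi-likelihood test, Benjamini-Hochberg adjustment over all genes). Of them 14 were called higher in FSK4h, 13 lower and 3 were not called (Fga, Gpr35 and Pawr). Among all tested genes 28.9% were called higher in FSK4h than in FSK1D and 28.4% lower. All but Ppargc1a were picked for large changes at 4 h, so a smaller change at 1 day is to be read with that choice in mind.

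Among the rises, log2 changes of FSK4h over FSK1D were 4.75 for Nppc, 4.32 for Areg, 4.16 for Nr4a3, 4.01 for Tll1, 3.23 for Penk, 2.87 for Ucp1, 2.68 for Lif, 2.34 for Hilpda, 2.16 for Ier3, 2.13 for Uap1, 2.01 for Ppargc1a, 1.61 for Gfpt2 and 1.01 for Il6. Prg4 was the exception, with −1.65. Ppargc1a, at 73.8 CPM in FSK4h, was at 18.3 CPM in FSK1D and 31.6 CPM in vehicle. At 1 day it was thus called lower than vehicle, with a log2 change of −0.79 (edgeR adjusted p = 1.5e-08). Among the falls they were −3.44 for Bmf, −3.09 for Wnt16, −2.90 for Lfng, −2.11 for Fam13c, −1.98 for Rab3il1, −1.33 for Mtus2, −1.32 for Irs3, −1.15 for Rspo2, −1.04 for Lrrc17, −1.03 for Slc40a1, −0.61 for Mc5r and −0.40 for Il17rd. Adcyap1r1, at 12.8 CPM in FSK4h and 8.77 CPM in FSK1D, was the one fall that was deeper at 1 day, with 0.53.

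A further 11 genes of the cAMP and early response lists were called in opposite directions at 4 h and at 1 day, each set against vehicle, and differed between the times. How many of all tested genes did so was not counted. With 59.0% of all genes called at 4 h and 57.3% between the times, the number alone says little about these lists. Dusp9 was at 11.8 CPM in FSK4h, 2.37 CPM in FSK1D and 5.13 CPM in vehicle (2.31 for FSK4h over FSK1D), and Egr2 at 28.0 CPM in FSK4h, 5.66 CPM in FSK1D and 8.75 CPM in vehicle (2.31). Dusp10 differed by 1.83, Egr1 by 1.49, Ier5 by 1.25, Myc by 1.10, Prkar2a by 0.82, Klf9 by 0.65, Akap8 by 0.56 and Sik3 by 0.42, all higher at 4 h. Sik3 was not called at 4 h with library size alone. Some changes at 1 day against vehicle were small, with log2 values of −0.12 for Prkar2a, −0.14 for Akap8, −0.18 for Klf9, −0.21 for Sik3 and −0.22 for Myc. Those of Prkar2a, Akap8 and Myc were not called with relative log expression factors (edgeR adjusted p = 0.11, 0.097 and 0.055 in this order) or with DESeq2. Pde7b, a cAMP-specific phosphodiesterase, went the other way, at 2.73 CPM in FSK4h, 12.9 CPM in FSK1D and 5.59 CPM in vehicle (−2.26).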

How the results depend on the processing

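No paired analysis was possible because the columns carry running library numbers and not the replicate numbers of the labels. With library size alone in place of TMM, 2519 genes were called higher and 6708 lower in FSK4h against vehicle, 1405 of the falls by 2-fold, and 2709 were called higher in FSK4h against FSK1D. The mean TMM factor was 0.907 in FSK4h and 1.04 in vehicle, which is what this setting leaves out. Under the other settings tried (relative log expression factors, DESeq2, no filter or a filter at 1 CPM in 3 libraries, halved counts, the 6 libraries alone, Rn45s left out, and each library left out in turn) the counts of genes stayed within 1.5 times. Without 1 library, 3938 to 4024 genes were called higher and 3921 to 4001 lower against vehicle.

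Of 233 single genes, 17 changed their side of the threshold under some setting. With library size alone, Crtc1 was lower by a log2 change of −0.16, Pnpla2 of −0.18 and Pparg of −0.15, all called, and Adipoq, Creb1, Prkacb and Sik2 were called lower as well. Gnas, Jund, Rn45s and Lipe were called higher in the 6 libraries alone, and all of these but Lipe also with no filter on low counts. Gnas was also called with relative log expression factors (edgeR adjusted p = 0.028) and with DESeq2 (adjusted p = 0.033). Taf1b was not called without FSK4h library S5 (edgeR adjusted p = 0.054). Depth limits the genes with few vehicle counts, such as Nppc and Areg, to wide intervals, which cover counting error only. The thermogenic list in the plot of shares had 1 gene called lower without FSK4h library S4, against 4 with it.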
